A study of Homo sapiens with 6 samples.

Results

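The 36 genes described here encode enzymes that oxidize pyruvate, turn the tricarboxylic acid (TCA) cycle, or feed and drain it. They were taken from a written list of TCA cycle, pyruvate dehydrogenase and anaplerotic genes, a rule that uses no measured value, although the list names IDH2, which the study itself singled out in these libraries, so that its change is not independent evidence here. Transcripts of 35810 genes were matched to the annotation and 13737 of these genes were tested, among them all 36. RNA-seq compared SPT5-AID cells infected with lentivirus carrying an shRNA against ARMC5 (shARMC5) with the same cells given a nontargeting shRNA (shNT), with 3 replicates in each group. SPT5-AID cells come from DLD-1, a colorectal adenocarcinoma line, and carry a degron tag that lets auxin remove the elongation factor SPT5. Both groups carried this tag and, by the study's methods, puromycin selection, and no auxin is named in their labels. ARMC5 is an adaptor of the CUL3 ubiquitin ligase that the study examined for its part in degrading RNA polymerase II, and the comparison asks which mRNAs differ when it is knocked down. Which of the ARMC5 shRNA constructs was used, and whether SPT5-AID is a single clone, is not stated in the sources used here.

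Pyruvate made by glycolysis enters mitochondria and is turned into acetyl-CoA by the pyruvate dehydrogenase complex, which kinases (PDKs) switch off and phosphatases switch on. Citrate synthase joins acetyl-CoA to oxaloacetate, and the cycle then runs through isocitrate, 2-oxoglutarate, succinyl-CoA, succinate, fumarate and malate back to oxaloacetate, giving NADH and reduced ubiquinone to the respiratory chain. Carbon also enters and leaves by side routes: pyruvate carboxylase makes oxaloacetate, PEP carboxykinase and malic enzymes remove it or malate, and glutamate dehydrogenase and transaminases link 2-oxoglutarate to amino acids. In proliferating colorectal cancer cells the cycle also supplies citrate for lipids and aspartate for nucleotides.

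Between 26201112 and 40866478 reads were assigned to transcripts in each library, and the 36 genes were covered by 179 (PDK2) to 13620 (GOT2) reads per library. ARMC5 mRNA, the target of the shRNA, was at 10.8, 11.97 and 12.9 CPM (reads per 1000000 on genes, scaled with edgeR's TMM factors) in shARMC5 replicates 1 to 3 and at 23.0, 25.9 and 26.7 CPM in shNT replicates 1 to 3, a log2 fold change of -1.09 (SE, the standard error, 0.08, adjusted P = 5.32e-07). Of 12 fixed colorectal epithelium markers, 7 passed the filter: KRT8, KRT18 and KRT19 were called higher and VIL1 lower (log2 fold change -1.30) in shARMC5 cells, EPCAM, CDH1 and CDX2 were not called, CDX1, LGALS4, CEACAM5 and GPA33 were at or near 0, and KRT20 was not analysed here. The summed level of this list was 9430 to 9524 CPM in shARMC5 and 8327 to 8653 CPM in shNT libraries, and that of 12 markers of blood, endothelial, stromal, liver and glial cells was 6.23 to 6.92 CPM over all libraries, with 3 to 5 of them at 0 reads in a library. Their part in the differences between groups was not tested. Mitochondrially encoded mRNAs took 2.37% to 3.404% of gene reads in shARMC5 and 1.99% to 3.96% in shNT libraries. In bulk RNA, fewer cells of a kind and less mRNA per cell cannot be told apart.

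Of the 36 mRNAs of pyruvate oxidation and the TCA cycle, 4 were lower in shARMC5 cells and 32 were not called, with log2 fold changes of the latter between -0.15 and 0.18. IDH2, the mitochondrial NADP-dependent isocitrate dehydrogenase, had the largest change, 30.1% lower by mean CPM. GPT2, the mitochondrial alanine transaminase, was 12.5% lower, PCK2, the mitochondrial PEP carboxykinase, 12.6% lower, and IDH1, the cytosolic counterpart of IDH2, 6.01% lower. No gene of the 36 was called higher (2 were higher at an unadjusted P under 0.05 in edgeR, and DESeq2 without a length offset also called 0 higher). A gene was called at an adjusted P under 0.1 in edgeR's quasi-likelihood test, with Benjamini-Hochberg adjustment over every tested gene. The 4 called genes are 11.1% of the list, beside 7.75% of all tested genes called in either direction and 3.3% called lower. The median log2 fold change was 0.02 over the 36 genes and -0.0014 over all tested genes, and the median absolute log2 fold change was 0.049 and 0.078. The levels of the 2 groups did not overlap for 12 of the 36 genes (33.3%, beside 23.4% of all tested genes), with 6 of them lower in shARMC5 cells (IDH2, GPT2, PCK2, IDH1, SDHA and PC) and 6 higher (FH, SUCLG1, GLUD1, GOT2, IDH3A and OGDH). With an offset for the average transcript length of each gene in edgeR, IDH2 was the 1 gene of the 36 that was still called. The 36 genes together summed to 4398 to 4490 CPM in shARMC5 and 4421 to 4476 CPM in shNT libraries, so the groups overlapped in the total.

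**Figure D1:**
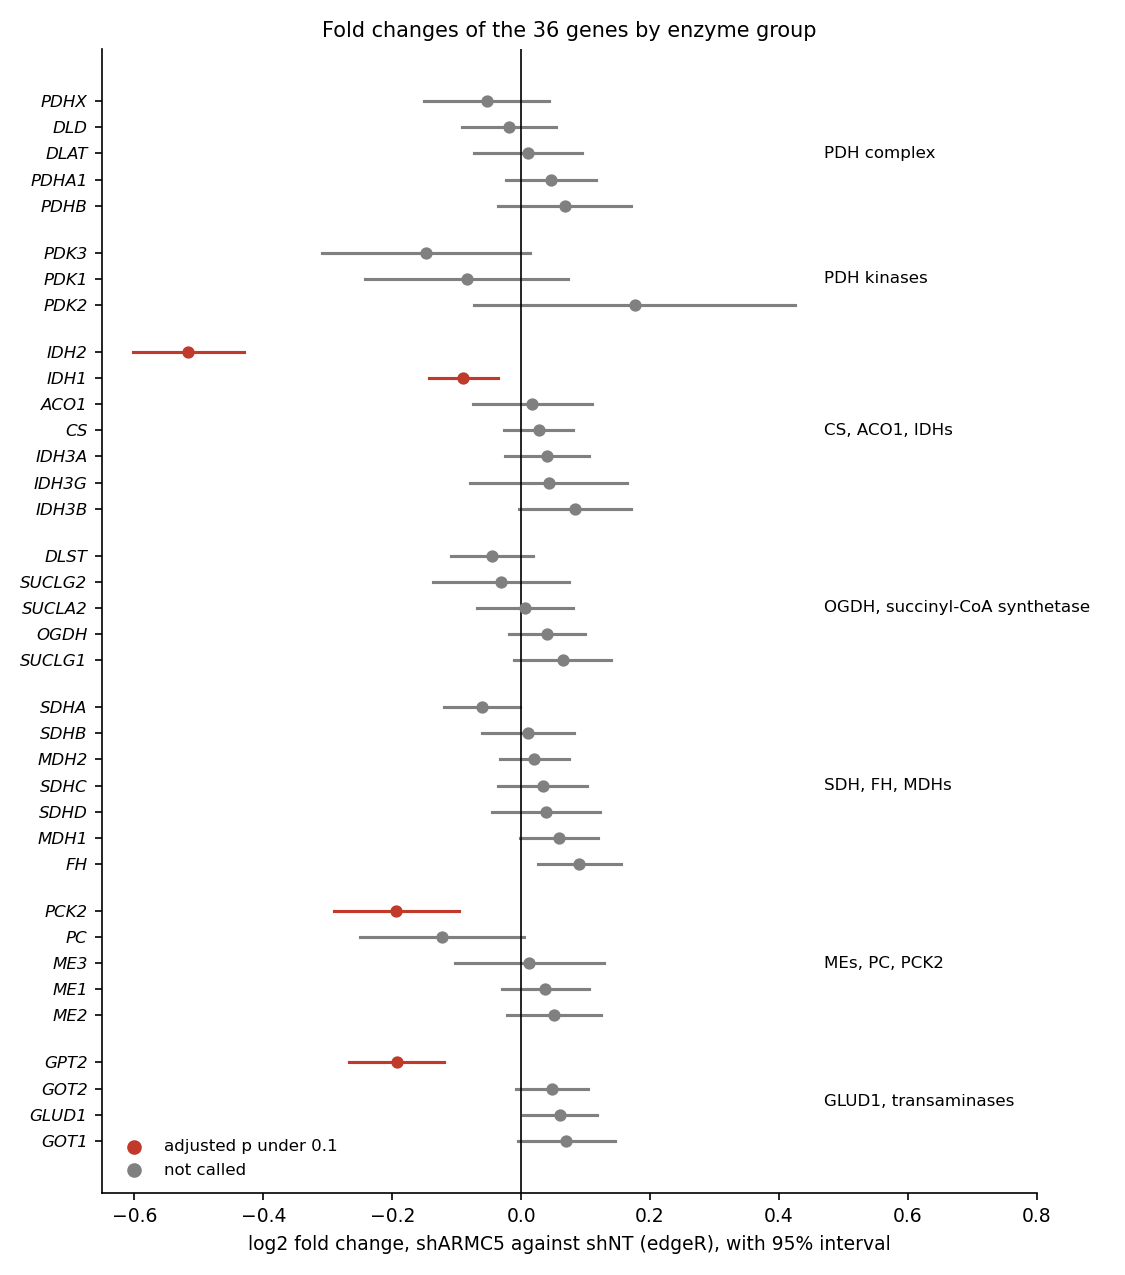
Log2 fold change of shARMC5 against shNT for each of the 36 genes, with its 95% confidence interval from edgeR's test, arranged by enzyme group. Points in red are the 4 genes called at an adjusted P under 0.1 (IDH2 at -0.52, PCK2 and GPT2 at -0.19, IDH1 at -0.09), and the grey points of the other 32 lie between -0.15 and 0.18.

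IDH2 spans bases 90083045 to 90102477 of chromosome 15 (GRCh38, minus strand) (ENSG00000182054), and its enzyme converts isocitrate to 2-oxoglutarate in mitochondria while making NADPH. Its level was 54.8, 56.9 and 54.9 CPM in shARMC5 replicates 1 to 3 and 79.3, 82.8 and 76.4 CPM in shNT replicates 1 to 3. The groups were far apart: the lowest shNT library exceeded the highest shARMC5 library by more than the whole spread within either group. The log2 fold change was -0.52 (SE 0.04, adjusted P = 9.30e-07), which ranked 12th by P among all tested genes. Per transcript length, IDH2 was at 49.0 ± 2.12 TPM (transcripts per 1000000 transcripts; SD, n = 3, as for all errors of this kind here) in shARMC5 and 72.3 ± 3.06 TPM in shNT cells. IDH2 was called under all 17 alternatives, with log2 fold changes from -0.54 to -0.49 and an adjusted P of at most 0.00236. A two-sided exact permutation test on its CPM gave P = 0.1, the lower limit for groups of 3.

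IDH2-202, the transcript with the most IDH2 reads in every library, starts 1773 bases downstream of the canonical transcript IDH2-201, inside an intron of the latter. The sequence just upstream of its first exon is printed for that reason, beside 208 bases upstream of IDH1-201, the main IDH1 transcript, and 30 bases upstream of PCK2-201. They come from the RefSeq table of promoter windows (GRCh38.p14, 250 bases before to 50 after each listed start) and are given 5′ to 3′ on the gene's strand. Those of IDH1 and IDH2 stop before the annotated transcript starts inside their windows. Whether exons of transcripts of the same gene that start further upstream cover any printed bases was not checked. Capitals mark the GC box GGGCGG, the binding motif of SP1-type factors, on either strand.
IDH2 (chr15:90100696-90100871, minus strand): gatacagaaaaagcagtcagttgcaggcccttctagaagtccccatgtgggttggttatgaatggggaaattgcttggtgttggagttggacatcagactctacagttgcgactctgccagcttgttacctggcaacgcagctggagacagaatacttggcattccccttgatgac
IDH1 (chr2:208255114-208255321, minus strand): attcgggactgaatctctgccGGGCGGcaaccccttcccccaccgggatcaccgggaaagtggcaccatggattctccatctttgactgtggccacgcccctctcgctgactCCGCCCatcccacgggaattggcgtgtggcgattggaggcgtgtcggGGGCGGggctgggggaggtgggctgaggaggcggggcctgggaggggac
PCK2 (chr14:24094246-24094275, plus strand): ccctaccaggttCCGCCCccgcgcctgccc
The RefSeq start listed for IDH2 is at 90100621, 74 bases downstream of the annotated start of IDH2-202, and those listed for IDH1 and PCK2 coincide with IDH1-201 and PCK2-201. The 250 bases before this listed IDH2 start held 0 GC boxes and were 48.4% G or C. They do not reach the start of the canonical IDH2-201, so the sequence upstream of that transcript was not examined. Those before the IDH1 start held 3 GC boxes and were 66.4% G or C, and those before the PCK2 start held 4 and were 71.6% G or C.

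The 44 windows of the 33 listed genes that the table holds were searched for 4 motifs on both strands. GC boxes were in 26 of the 44 windows (59.1%) and in 44.95% of all 35116 windows. The E-box CACGTG, bound by MYC and other helix-loop-helix factors, was in 4 windows (9.09%), of ME3, PDHB and PDK2, and in 7.26% of all windows. TGATGNAA, the core of the element that ATF4 binds with a C/EBP partner, was in 3.62% of all windows and in 1 window of the list, that of GOT1. It is shown with its surroundings, starting 198 bases before the GOT1 start, with the match, which reads on the opposite strand, in capitals.
GOT1 (chr10:99430804-99430833, minus strand): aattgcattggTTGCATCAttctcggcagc
The sterol regulatory element TCACNCCAC was in 1.13% of all windows and in the same GOT1 window, at a place that does not overlap the former. GOT1 itself was not called (log2 fold change 0.07). A match of letters describes the window only, and no match says only that these letters are not in it.

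**Figure D2:**
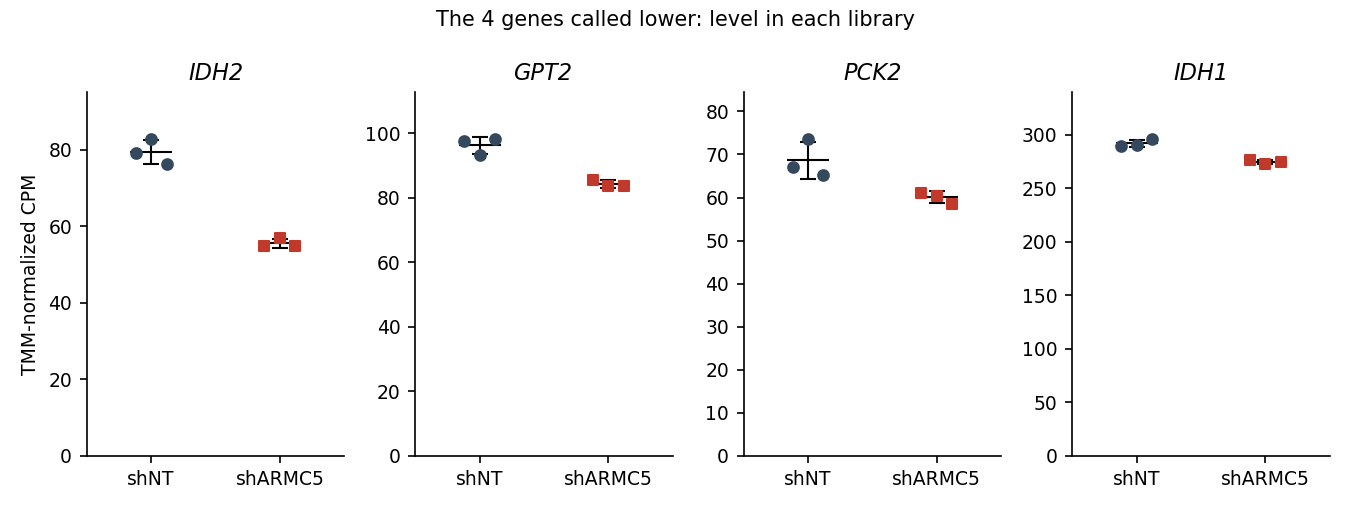
TMM-normalized CPM of IDH2, GPT2, PCK2 and IDH1 in each library, with shNT as circles, shARMC5 as squares, and lines for the mean ± SD of 3 libraries. Every shARMC5 library lies below every shNT library in each panel, and the axes start at 0 to show that the gap is wide for IDH2 and narrow for IDH1.

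Of 4 annotated IDH2 transcripts, IDH2-202 held 43.6% of IDH2 reads in shARMC5 and 45.5% in shNT cells on average. IDH2-201 held 33.6% and 30.6%, and IDH2-204, annotated as a target of nonsense-mediated decay, 21.1% and 22.6%. The ranges of each share overlapped between groups (exact permutation P = 0.3, 0.2 and 0.7 over libraries, in a test that cannot fall below 0.1). Fitted one by one, IDH2-202 had a log2 fold change of -0.57 (SE 0.07, adjusted P = 0.189), IDH2-201 of -0.38 (SE 0.12, adjusted P = 0.811) and IDH2-204 of -0.61 (SE 0.19, adjusted P = 0.802). All 3 were thus negative and none was called, in a fit that called 4 of 49809 transcripts (0.00803%). IDH2-203 was listed at 0 to 98 reads and was not tested. Among the 388 transcripts of the 36 genes, 181 were tested and 0 were called by edgeR (7 at an unadjusted P under 0.05), and IDH2-202 had the lowest adjusted P. Salmon divided the reads that transcripts share, which limits each of these values.

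**Figure D3:**
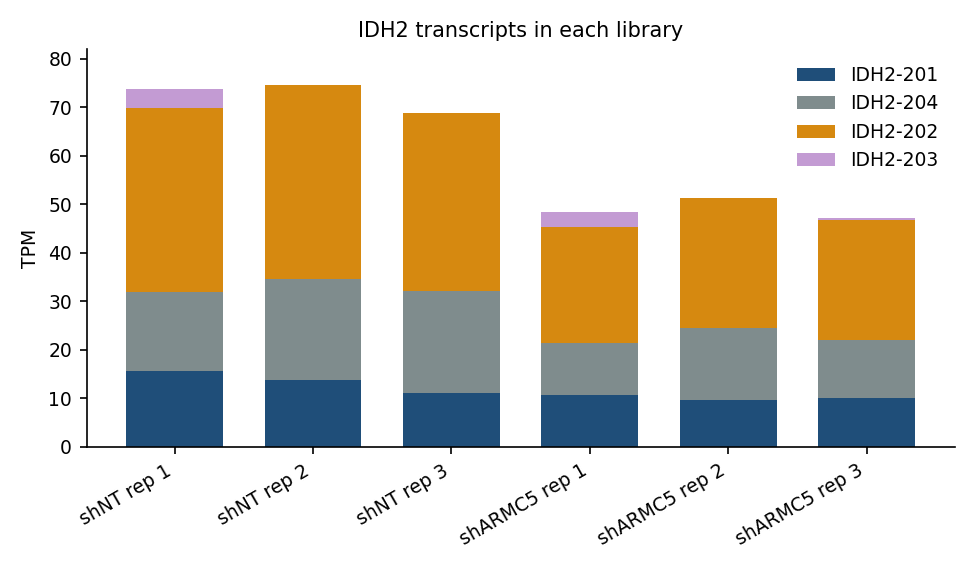
TPM of each annotated IDH2 transcript, stacked, in each shNT and shARMC5 library. The stacks of shARMC5 libraries reach 47.2 to 51.3 TPM and those of shNT libraries 68.8 to 74.5 TPM, and IDH2-202 is the largest piece of each stack.

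IDH1 lies on chromosome 2 from 208236229 to 208266074 on the minus strand (ENSG00000138413), and its enzyme carries out the IDH2 reaction in cytosol and peroxisomes. Its level was 276.1, 272.7 and 274.6 CPM in shARMC5 replicates 1 to 3 and 289.6, 290.7 and 295.7 CPM in shNT replicates 1 to 3. The groups did not overlap, although the gap was small against the level. The log2 fold change was -0.09 (SE 0.03, adjusted P = 0.0509). This call was lost without shARMC5 replicate 2 (adjusted P = 0.167), shARMC5 replicate 3 (0.104), shNT replicate 1 (0.108) or shNT replicate 3 (0.187), and with the length offset in edgeR (0.1997), while the log2 fold change stayed between -0.10 and -0.08 in these fits.

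The other genes of the steps from acetyl-CoA to 2-oxoglutarate were not called. CS, the citrate synthase, was at 185 ± 10.1 TPM in shNT cells with a log2 fold change of 0.03, or of -0.003 with the length offset in edgeR. ACO1, the cytosolic aconitase that also binds iron-responsive mRNAs, was at 21.8 ± 0.868 TPM with 0.02. IDH3A, IDH3B and IDH3G encode the NAD-dependent isocitrate dehydrogenase of the cycle itself, a different enzyme from IDH1 and IDH2. IDH3A, its alpha subunit, was at 125 ± 9.35 TPM in shNT cells with a log2 fold change of 0.04. IDH3B was at 119 ± 1.43 TPM with 0.08, and IDH3G at 56.1 ± 3.08 TPM with 0.04. IDH3B was called higher only without shARMC5 replicate 1 (log2 fold change 0.13, adjusted P = 0.0910), whose level of 113.1 CPM lay within the shNT range of 112.0 to 115.1 CPM, and without shARMC5 replicate 3 the log2 fold change was 0.03.

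The shares of paralogous enzymes, taken per length within each library, were compared over 3 against 3 libraries, where no P under 0.1 can be reached. Of the summed TPM of IDH1, IDH2 and IDH3A, which stands for its complex, IDH2 made up 13.5%, 13.8% and 13.8% in shARMC5 replicates 1 to 3 and 18.1%, 19.5% and 18.2% in shNT replicates 1 to 3. The groups did not overlap (exact permutation P = 0.1, the smallest possible, 0.65 after Benjamini-Hochberg adjustment over 13 shares). IDH3A took 36.7% ± 1.80 in shARMC5 and 32.2% ± 1.13 in shNT cells (exact P = 0.1, adjusted 0.65), and IDH1 49.5% ± 1.86 and 49.2% ± 0.841 (exact P = 0.8). Shares within a set add up to the whole, so a lower IDH2 share must raise another. The IDH3A share is thus not a separate result, and IDH3A itself was not called (log2 fold change 0.04). PDK2 made up 36.4% ± 3.20 of the TPM of PDK1, PDK2 and PDK3 in shARMC5 and 29.6% ± 3.37 in shNT cells (exact P = 0.2, adjusted 0.867). The remaining shares, from SUCLA2 among the beta subunits of succinyl-CoA synthetase to MDH1 among the malate dehydrogenases, GOT1 among the aspartate transaminases, each malic enzyme among its kind, PC against PCK2, and the other PDKs, differed by -5.29 (PDK3) to 0.83 (ME3) percentage points, none past the test.

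**Figure D4:**
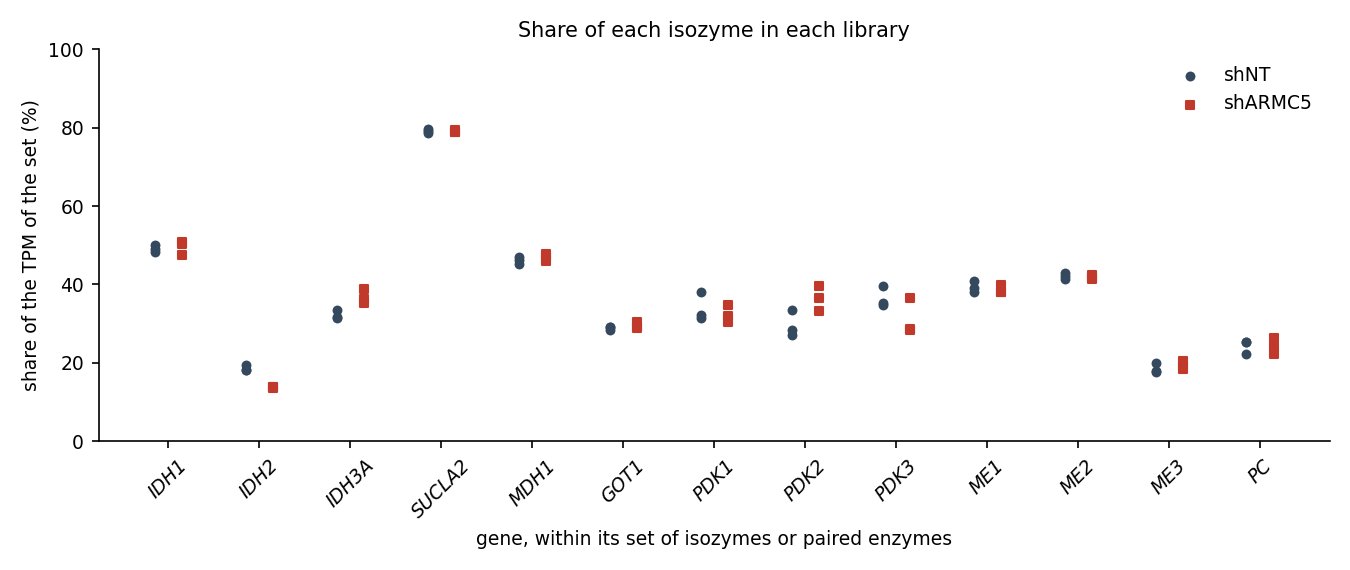
Share of the summed TPM of a set of related enzymes (in %) taken by each gene in each library, with shNT as circles and shARMC5 as squares. IDH2 stands out as a gene whose shARMC5 libraries (13.5% to 13.8%) lie apart from its shNT libraries (18.1% to 19.5%), as do those of IDH3A, while most other pairs overlap. Shares within a set add up to the whole, so the IDH3A share is not independent of the IDH2 share.

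PCK2 was among the 4 lower genes, and the malic enzymes and pyruvate carboxylase grouped with it were not called. PCK2 lies on chromosome 14 from 24094053 to 24110598 on the plus strand (ENSG00000100889), and its enzyme turns mitochondrial oxaloacetate into phosphoenolpyruvate. Its level was 61.1, 60.4 and 58.4 CPM in shARMC5 replicates 1 to 3 and 67.1, 73.5 and 65.3 CPM in shNT replicates 1 to 3. The groups did not overlap, and shNT replicate 2 was the highest library. The log2 fold change was -0.19 (SE 0.05, adjusted P = 0.0210), and without the highest library it was -0.14 and still called. Per length, PCK2 was at 39.8 ± 1.19 TPM in shARMC5 and 45.7 ± 2.69 TPM in shNT cells. The length offset in edgeR left the fold change at -0.18 but ended the call (adjusted P = 0.196).

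PC, the pyruvate carboxylase that refills oxaloacetate, was at 33.0, 28.98 and 32.4 CPM in shARMC5 replicates 1 to 3 and at 35.1, 33.5 and 34.0 CPM in shNT replicates 1 to 3. The groups did not overlap, but the gap was small against the spread among shARMC5 libraries, and the log2 fold change of -0.12 (SE 0.06, adjusted P = 0.296) was not called. It was -0.06 without shARMC5 replicate 2 and -0.18 with the length offset in edgeR (adjusted P = 0.417). Its reads share an exonic stretch with LRFN4 on the opposite strand, which held up to 185% as many reads, and the library kit does not mark strand. Malic enzymes convert malate to pyruvate. ME1, the cytosolic NADP-dependent form, was at 67.2 ± 2.33 TPM in shNT cells with a log2 fold change of 0.04, or of -0.03 when unmatched transcripts listed after it were added. ME2 and ME3 work in mitochondria. ME2 was at 72.1 ± 3.30 TPM with 0.05, and ME3 at 31.7 ± 3.60 TPM with 0.01, or -0.001 with library sizes alone and 0.13 with the length offset in edgeR (adjusted P = 0.572).

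Of the genes that tie 2-oxoglutarate to glutamate, alanine and aspartate, GPT2 was lower and the other 3 were not called. GPT2 lies on chromosome 16 from 46884362 to 46931289 on the plus strand (ENSG00000166123), and its enzyme moves the amino group of glutamate onto pyruvate, giving alanine and 2-oxoglutarate. Its level was 85.6, 83.6 and 83.5 CPM in shARMC5 replicates 1 to 3 and 97.5, 93.3 and 98.1 CPM in shNT replicates 1 to 3. All shARMC5 libraries were below all shNT libraries, and the gap between the groups was wider than the spread within either. The log2 fold change was -0.19 (SE 0.03, adjusted P = 0.00324), and it was called with each library left out in turn (-0.22 to -0.18). Per length, GPT2 was at 45.3, 40.6 and 33.9 TPM in shARMC5 replicates 1 to 3 and at 47.0, 45.3 and 45.5 TPM in shNT replicates 1 to 3, so on this scale shARMC5 replicate 1 reached the shNT range. With the length offset GPT2 was not called in edgeR (log2 fold change -0.19, adjusted P = 0.409) or DESeq2 (-0.19, adjusted P = 0.300), and the cause was not tested.

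GLUD1, the glutamate dehydrogenase, was at 95.9 ± 3.84 TPM in shNT cells with a log2 fold change of 0.06. GOT1 and GOT2, the cytosolic and mitochondrial aspartate transaminases of the malate-aspartate shuttle, were at 86.4 ± 4.29 and 212 ± 7.03 TPM, with log2 fold changes of 0.07 and 0.05. Levels of GLUD1 and GOT2 did not overlap between groups, yet neither passed the test over all genes (adjusted P = 0.247 and 0.366).

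The pyruvate dehydrogenase complex showed no called gene, and every interval of its 5 genes lay within 0.2 of 0 on the log2 scale. PDHA1 and PDHB encode the subunits of its E1 enzyme, which decarboxylates pyruvate. PDHA1 was at 217 ± 11.2 TPM in shNT cells with a log2 fold change of 0.05, and PDHB at 45.4 ± 0.816 TPM with 0.07. DLAT, the E2 acetyltransferase at the core, was at 58.7 ± 2.17 TPM with 0.01, or -0.004 with library sizes alone. PDHX, which binds E3 to that core, was at 52.4 ± 2.57 TPM with -0.05 (-0.02 without shARMC5 replicate 1 and -0.09 without shARMC5 replicate 2), and DLD, the E3 dehydrogenase that serves several such complexes, at 111 ± 3.62 TPM with -0.02. Hence the E1 alpha mRNA was the highest of the complex per length. In PDHA1, 37.5% of reads in shNT cells were on the canonical transcript and the rest were spread over others, retained introns among them, so its TPM rests on how short transcripts were weighed.

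The kinases that phosphorylate and switch off the complex were the least abundant of the 36 genes together with PC, and none was called. PDK2 had the largest positive log2 fold change of the list, 0.18 (SE 0.12, adjusted P = 0.468). It was at 8.48, 8.65 and 7.10 CPM in shARMC5 replicates 1 to 3 and at 7.49, 7.59 and 6.39 CPM in shNT replicates 1 to 3, and the groups overlapped. With the length offset its log2 fold change was 0.45 in edgeR (adjusted P = 0.256) and in DESeq2 (adjusted P = 0.191), and it was 0.10 without shNT replicate 3 and 0.12 without shARMC5 replicate 2. PDK3 was at 28.8, 25.6 and 30.8 CPM in shARMC5 and 34.3, 30.2 and 29.7 CPM in shNT replicates 1 to 3, also with overlap, and its log2 fold change was -0.15 (SE 0.08, adjusted P = 0.328), which became -0.09 with the length offset and -0.08 without shARMC5 replicate 2 or shNT replicate 1. PDK1, a target of the hypoxia response, was at 7.31 ± 0.977 TPM in shNT cells with -0.08, which became 0.09 with the length offset, -0.05 without shNT replicate 1 and -0.14 without shNT replicate 3. The widest intervals of the list belonged here, with a 95% bound of 0.43 for PDK2 and of -0.31 for PDK3.

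The steps from 2-oxoglutarate to succinate had no called gene. OGDH, the E1 enzyme of the 2-oxoglutarate dehydrogenase complex, was at 56.8 ± 2.01 TPM in shNT cells with a log2 fold change of 0.04, and DLST, its E2 enzyme, at 109 ± 1.75 TPM with -0.04. SUCLG1 encodes the alpha subunit of succinyl-CoA synthetase, SUCLA2 the ATP-forming and SUCLG2 the GTP-forming beta subunit. SUCLG1 was at 91.3 ± 2.65 TPM with 0.06, SUCLG2 at 28.3 ± 0.396 TPM with -0.03, and SUCLA2 at 108 ± 3.25 TPM with 0.01, or -0.03 with the length offset in edgeR. The ATP-forming subunit thus made up 79.1% of the beta subunit TPM in shARMC5 and 79.2% in shNT cells (exact permutation P = 1 over libraries).

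Succinate dehydrogenase, the complex shared with the respiratory chain, and the enzymes that follow it had no called gene either. SDHA, its flavoprotein, was at 142 ± 4.24 TPM in shNT cells with a log2 fold change of -0.06, and SDHB, its iron-sulfur subunit, at 143 ± 3.32 TPM with 0.01, or -0.05 with the length offset. SDHC and SDHD, the membrane anchors, were at 163 ± 8.41 and 131 ± 1.38 TPM with 0.03 and 0.04. All 4 subunit mRNAs therefore lay between 131 and 163 TPM. MDH1 and MDH2, the cytosolic and mitochondrial malate dehydrogenases, were the most abundant mRNAs of the list at 269 ± 3.37 and 314 ± 15.3 TPM, with 0.06 and 0.02.

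FH, the fumarase, came closest to a call among the 32 uncalled genes. FH lies on chromosome 1 from 241497511 to 241519799 on the minus strand (ENSG00000091483). Its level was 168.6, 169.3 and 174.8 CPM in shARMC5 replicates 1 to 3 and 155.9, 163.2 and 162.4 CPM in shNT replicates 1 to 3, without overlap. The log2 fold change was 0.09 (SE 0.03, adjusted P = 0.106). It passed the threshold without shNT replicate 2 (0.10, adjusted P = 0.0965) and with genes of at least 1 count admitted (adjusted P = 0.0869).

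For 28 of the 32 uncalled genes the whole 95% interval of the log2 fold change lay within 0.2 of 0. The exceptions were PC and the 3 PDKs. Being close to 0, the values of 26 of the 32 moved by over 1.5 times under at least 1 alternative, but by over 0.1 on the log2 scale for ME3, PDK1 and PDK2 only. In the main fit, which has no length offset, a change larger than 0.2 is thus outside the interval for most steps of the cycle. Smaller changes are not shown to be absent, and intervals with the offset are not given here.

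Per length, the 36 mRNAs spanned 49.1-fold in shNT cells, from PDK2 at 6.38 ± 0.761 TPM to MDH2. Their median was 88.8 TPM, against 16.6 TPM over all tested genes, and 32 of them were above the latter. Following MDH2 and MDH1 came PDHA1, GOT2, IDH1 (191 ± 4.73 TPM) and CS, and at the low end stood ACO1, PC, PDK3, PDK1 and PDK2. Ordered by mean TPM, 18 of the 35 neighbouring pairs had overlapping shNT libraries, so the order is loose inside the list but firm between its ends. IDH2 held the middle of this order in shNT cells.

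**Figure D5:**
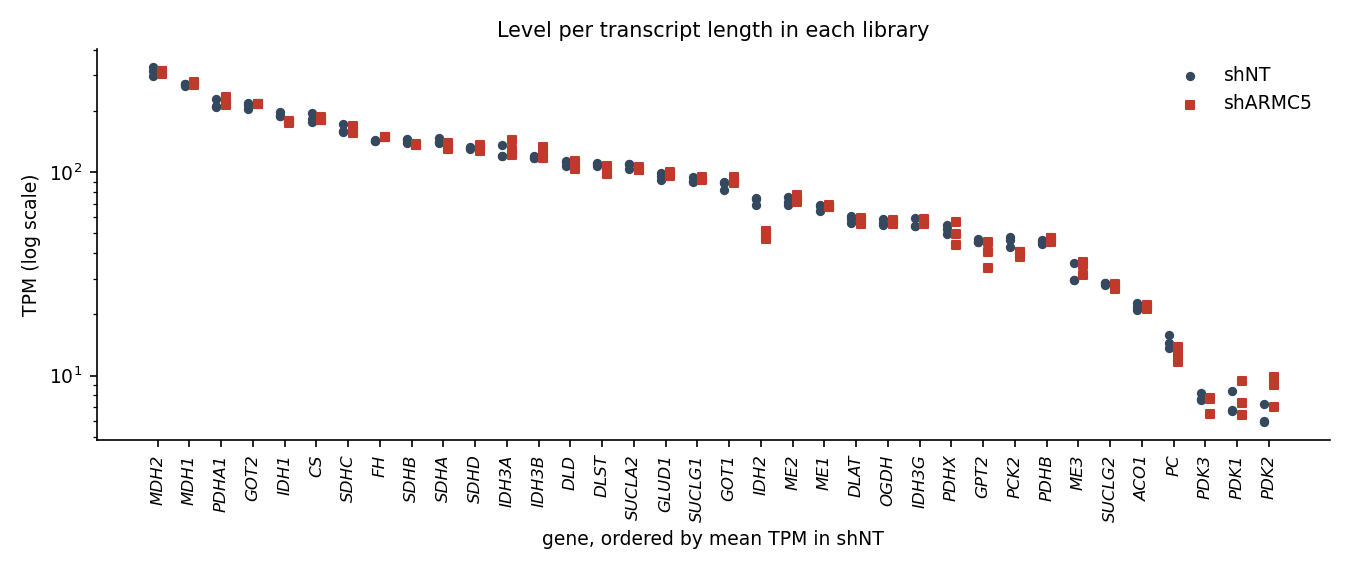
TPM on a log scale for each of the 36 genes in each library, ordered by the shNT mean, with shNT as circles and shARMC5 as squares. Levels run from MDH2 (314 TPM) to PDK2 (6.38 TPM), and IDH2 is seen as a clear step down in shARMC5 libraries.

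Another 45 genes of the same pathways, 37 of them enzymes, assembly and lipoylation factors and 8 mitochondrial carriers, were listed beside the 36. Of these, 39 were tested and 4 were called, 1 higher and 3 lower, with a median log2 fold change of -0.03. That is 10.3% called and 7.69% called lower, beside 7.75% and 3.3% of all tested genes. PDP1, the catalytic subunit of the phosphatase that reactivates pyruvate dehydrogenase, rose. Its level was 86.1, 85.4 and 85.0 CPM in shARMC5 replicates 1 to 3 and 68.5, 77.0 and 73.5 CPM in shNT replicates 1 to 3, a log2 fold change of 0.23 (SE 0.04, adjusted P = 0.00345). DHTKD1, the E1 enzyme of the 2-oxoadipate dehydrogenase complex of lysine breakdown, fell from 26.4 ± 0.769 to 21.7 ± 1.64 CPM (log2 fold change -0.28, SE 0.07, adjusted P = 0.0202). D2HGDH, which oxidizes D-2-hydroxyglutarate to 2-oxoglutarate, fell from 16.1 ± 0.942 to 12.9 ± 0.785 CPM (-0.32, SE 0.08, adjusted P = 0.0277). NNT, the proton-driven transhydrogenase that makes mitochondrial NADPH, fell from 82.7 ± 1.47 to 75.7 ± 1.98 CPM (-0.13, SE 0.04, adjusted P = 0.0567). The groups did not overlap for any of these 4 genes, and 0 of the 7 tested carriers was called by edgeR (1 at an unadjusted P under 0.05).

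Each of these 4 calls was lost with the length offset in edgeR (adjusted P from 0.1201 for PDP1 to 0.220 for DHTKD1), with log2 fold changes of 0.23 for PDP1, -0.30 for DHTKD1 and -0.46 for D2HGDH. With that offset in DESeq2 the call of DHTKD1 was lost (adjusted P = 0.1204) and those of PDP1 (0.0155), D2HGDH (0.0725) and NNT (0.0492) were made, while DESeq2 without it did not call NNT (0.111). The log2 fold change of NNT was -0.22 with the offset in either tool. Without shARMC5 replicate 2 the calls of DHTKD1 (adjusted P = 0.106) and D2HGDH (0.131) were lost, that of D2HGDH also without shNT replicate 1 (0.101) or 3 (0.110), and that of NNT without shARMC5 replicate 1 (0.152) or 3 (0.155) or shNT replicate 1 (0.158) or 3 (0.183).

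Some of the 36 genes share bases with neighbours. Among those reported here, exons overlap those of a gene on the opposite strand for IDH3G (SSR4, with up to 246% as many reads), DLD (LAMB1, 168%), PDHX (APIP, 62.0%) and GLUD1 (SHLD2, 41.1%), and in such stretches reads from the pair cannot be told apart without strand. Annotated pseudogenes held at most 3.95% as many reads as their parent gene (SDHAP2 beside SDHA). Of the 4 called genes, IDH1 alone overlaps such a gene, IDH1-AS1, which was listed at 0 reads in every library.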

How the data were processed

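Polyadenylated RNA of 3 shARMC5 and 3 shNT libraries was analysed. The authors ran cutadapt 4.2 for quality trimming, then Salmon 1.9.0 with GC bias correction for transcript abundance (genome build hg38 in the submitters' processing notes, transcript set not given in the sources used here). The deposited files give an estimated count of reads per transcript, not normalized between libraries, and its TPM as Salmon computed it. The kit as named does not mark strand. Of 177456 transcripts, 165533 were matched by identifier without version to GENCODE 44, and those unmatched held 2.96% to 3.04% of reads.

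Estimated counts were summed per gene and rounded, TPM were summed. A gene entered the test when 3 or more libraries had 10 counts or more, with edgeR 4.0.16 (R 4.3.3; robust quasi-likelihood F test, TMM factors of 0.992 to 1.02, no covariate, Benjamini-Hochberg over 13737 genes, threshold 0.1), and transcripts likewise. Shares of TPM were compared by two-sided exact permutation tests (scipy 1.17.1). The study's methods name tximeta and DESeq2 and do not say whether a length offset was applied. The main fit here applies none, so it may differ from the study's fit in this as well as in the tool. DESeq2 1.42.0 with and without length offsets is an alternative here. On simulated counts for the 13737 genes edgeR recovered 90% of genes changed by 0.5 and 98% of those changed by 1 on the log2 scale, and DESeq2 86% and 97%. In the same trial on 49809 transcripts edgeR recovered 61% and 93%. Every simulated gene or transcript had the same coefficient of variation, 0.0643, taken from the gene fit. Changes were placed only in features above a minimum mean count. The spread of real transcripts, and differences in spread between genes, were not simulated. These percentages thus check the code and do not measure the power of the tests on these libraries.

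The genes, lists, markers and motifs were chosen with earlier results of these data known. By rule, each of the 36 genes is named with its level and log2 fold change. Values per library are given for called genes (at most 12), IDH2 and the 3 uncalled genes with the largest absolute log2 fold change, and of other lists called genes alone are named, at most 4 each way. The values per library of FH and IDH3B, and the uncalled and untested markers, were named after they were seen. The methods call replicates biological, while the labels give numbers alone, so P values measure the spread between these libraries. Libraries of a group differed by more than counting noise (chi-square per degree of freedom 5.25 to 21.3), so no library was taken for a copy of another. Depth of 26201112 to 40866478 reads sets the counting error of each gene. Sequences come from RefSeq promoter windows, which hold 33 of the 36 genes and lack GPT2, SDHC and OGDH. Alternatives were other scaling, length offsets, DESeq2, other count filters, a replicate term, each library left out, a threshold of 0.05, and unmatched or pseudogene reads added. The biological coefficient of variation was 0.0643. One overlapping gene is not reported here.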

Additional observations from a re-analysis of the deposited data

How the results depend on the processing

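IDH2 was called lower, and none of the 4 called genes changed direction, under all 17 alternatives. The number of the 36 genes called was 3 to 5 with 1 library left out (3 to 4 lower), and 1, lower, with the length offset in edgeR. There the calls of GPT2, PCK2 and IDH1 were lost, the cause was not tested, and all genes called fell to 235. DESeq2 with that offset called 3 of the 36 and 568 of all genes. Over all genes 536 (without shNT replicate 1) to 1085 were called with 1 library left out, and 676 at an adjusted P under 0.05. Of the 45 other pathway genes 0 were called with the length offset in edgeR and 2 to 4 with 1 library left out (2 without shARMC5 replicate 2, shNT replicate 1 or shNT replicate 3).

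Whether the replicate numbers pair the libraries is not stated in the labels. Deviations of same-numbered libraries from their group means correlated at -0.0135, -0.0059 and -0.0216 across genes. Those of differently numbered libraries correlated at -0.0149 to 0.0271. A correlation over all genes cannot exclude a pairing that acts on some of them. With a replicate block 1766 of all genes were called, beside 1064 without it. Of the 36 genes 5 were called with the block, FH (0.09, adjusted P = 0.0359 in edgeR) being added. No member transcript was called with the block or with any library left out (0 to 0). Among all tested transcripts these fits called 0 with the block and 0 to 2 with 1 library left out, so few calls were made on any list.

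Of 612 alternative log2 fold changes of the 36 genes, 28 over 10 uncalled genes changed sign, all of them small. With the length offset in edgeR and DESeq2 these were CS (-0.00325 and -0.00398), SUCLA2 (-0.0322 and -0.0326), SDHB (-0.0462 and -0.0467) and PDK1 (0.093 and 0.0919). With library sizes alone they were SUCLA2 (-0.0081), SDHB (-0.00363), ME3 (-0.00132) and DLAT (-0.00388), and with unmatched transcripts added ME1 (-0.0258).
With 1 library left out the ranges were ACO1 -0.00587 to 0.0502, IDH3G -0.00287 to 0.11, DLD -0.0474 to 0.00843, SUCLA2 -0.0132 to 0.0344, SDHB -0.00385 to 0.0229, ME3 -0.0129 to 0.0417 and DLAT -0.0235 to 0.0489.

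With 3 libraries against 3 or fewer the tests of isozyme shares cannot fall below 0.1, so they say nothing on stability. Taken from CPM in place of TPM, the difference in share (percentage points) changed sign for SUCLA2 (0.495), ME2 (0.267), ME3 (-0.207) and PC (1.09). With 1 library left out the ranges that crossed 0 were SUCLA2 -0.386 to 0.228, ME2 -0.62 to 0.214, PC -1.15 to 0.899, IDH1 -0.371 to 1.38, ME1 -1.28 to 0.216 and PDK1 -2.72 to 0.688. A call that was not made does not show that a gene was at the same level in both groups. Depth was least for PDK2 (179 to 341 reads per library), which also had the largest SE of the 36 genes (0.12).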
